A study of Mus musculus with 8 samples.

Results

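The clustered protocadherins are cell surface adhesion proteins encoded by 3 neighbouring gene clusters, alpha, beta and gamma, on mouse chromosome 18. They were taken from the deposited tables by gene symbol alone, which gave 58 of the 24060 genes listed. The members are 14 alpha genes (12 variable isoforms and the C-type isoforms Pcdhac1 and Pcdhac2), 22 beta genes and 22 gamma genes (12 of subfamily A, 7 of subfamily B and the C-type isoforms Pcdhgc3, Pcdhgc4 and Pcdhgc5). The libraries came from cortices of 4 mice of postnatal day 80, males and females, all of genotype Aldh1l1-creERT2 hemi; Ribotag het. Cre driven by Aldh1l1, an astrocyte gene, acts only after tamoxifen, and where it acts the RiboTag allele puts a hemagglutinin (HA) tag on the ribosomal protein Rpl22. Each animal gave an HA IP library, made from RNA that came down with tagged ribosomes, and an input library, made from the cleared lysate of the same cortex. The 4 HA IP libraries were compared with the 4 input libraries, and each library is named by its animal (579, 580, 581 or 595). The input holds the RNA of all cells of the cortex, astrocytes included, and every input animal carries the same alleles as its HA IP partner.

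Clustered protocadherins bind like molecules on neighbouring cells, and the set of isoforms a cell displays sets which contacts it recognises as its own. Each alpha and gamma isoform has its own promoter and its own large first exon, which is spliced to constant exons shared by the whole cluster, whereas each beta gene is a single exon. Neurons choose variable isoforms largely by chance through CTCF, cohesin and DNA methylation at the promoters, while C-type isoforms are under separate control. Gamma protocadherins are also known in astrocytes, where they take part in contacts with neurons.

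Total fragments ran from 33834388 to 45671386 across the HA IP libraries and from 35411626 to 53625125 across the input libraries. Aldh1l1 averaged 406 ± 26.2 FPKM (fragments scaled to gene length and library total) across HA IP libraries and 21.8 ± 0.926 FPKM across input libraries (SD, n = 4 animals each). Rpl22, the tagged gene, averaged 9.37 ± 1.54 FPKM across HA IP libraries and 10.3 ± 0.989 FPKM across input libraries. All 12 astrocyte markers tested were higher in HA IP. All 9 neuron, 7 oligodendrocyte, 4 oligodendrocyte precursor, 7 microglia and 5 endothelial markers were lower. Among 5 mural markers 1 was higher and 2 were lower, among 4 fibroblast markers 1 and 2, and among 4 markers of ependyma and choroid plexus 2 and 1. Because precipitation changes the make-up of the RNA, fold changes are given on 2 scales. The first follows scaling by trimmed means of M-values (TMM), which centres the bulk of genes and lifts log2 ratios by 0.84 relative to the second, the values as deposited. The lift is smaller for low genes, because 0.1 FPKM was added to each value before the logarithm, and for the same reason fitted fold changes of low genes understate the change. The median log2 fold change of all 15605 genes tested was 0.01 after TMM scaling and -0.75 on the deposited scale. Both libraries of an animal come from the same cortex, so cell numbers do not differ between them. Their ratio mixes a transcript's cell of origin, its share on ribosomes and RNA that came down without tagged ribosomes. These cannot be told apart here, and no library of an untagged animal was among those compared.

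The alpha cluster was nearly absent from HA IP, and most beta genes were lower than in input on both scales, to varying degrees. The gamma cluster was mixed, with Pcdhgc3 far above input and Pcdhgc5 and Pcdhgc4 below it. After TMM scaling, 10 of the 56 members tested were higher in HA IP, 35 were lower and 11 did not pass the threshold, an adjusted p of 0.05 in limma. Of all genes tested 83.3% passed, 42.1% as higher and 41.2% as lower, so calls in either direction were common throughout the transcriptome. The median log2 fold change of the 56 members was -0.72. On the deposited scale 2 members were higher, 48 were lower and 6 did not pass, against 23.3% of all genes higher and 61.6% lower (84.9% in either direction), and the median of the members was -1.37. The 35 genes called lower were lower on both scales, whereas Pcdhgc3 and Pcdhga6 were the 2 higher on both. For 12 members the sign of the fold change itself depended on the scale, 3 of them being called higher after TMM scaling and lower as deposited. On the deposited scale all 4 HA IP values lay below all 4 input values for 49 of the 58 members and above them for 2, against 59.0% and 22.0% of the genes tested. Without animal 579 the number called higher after TMM scaling was 6. With median-of-ratios scaling in place of TMM, 7 members were higher and 37 lower.

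**Figure D1:**
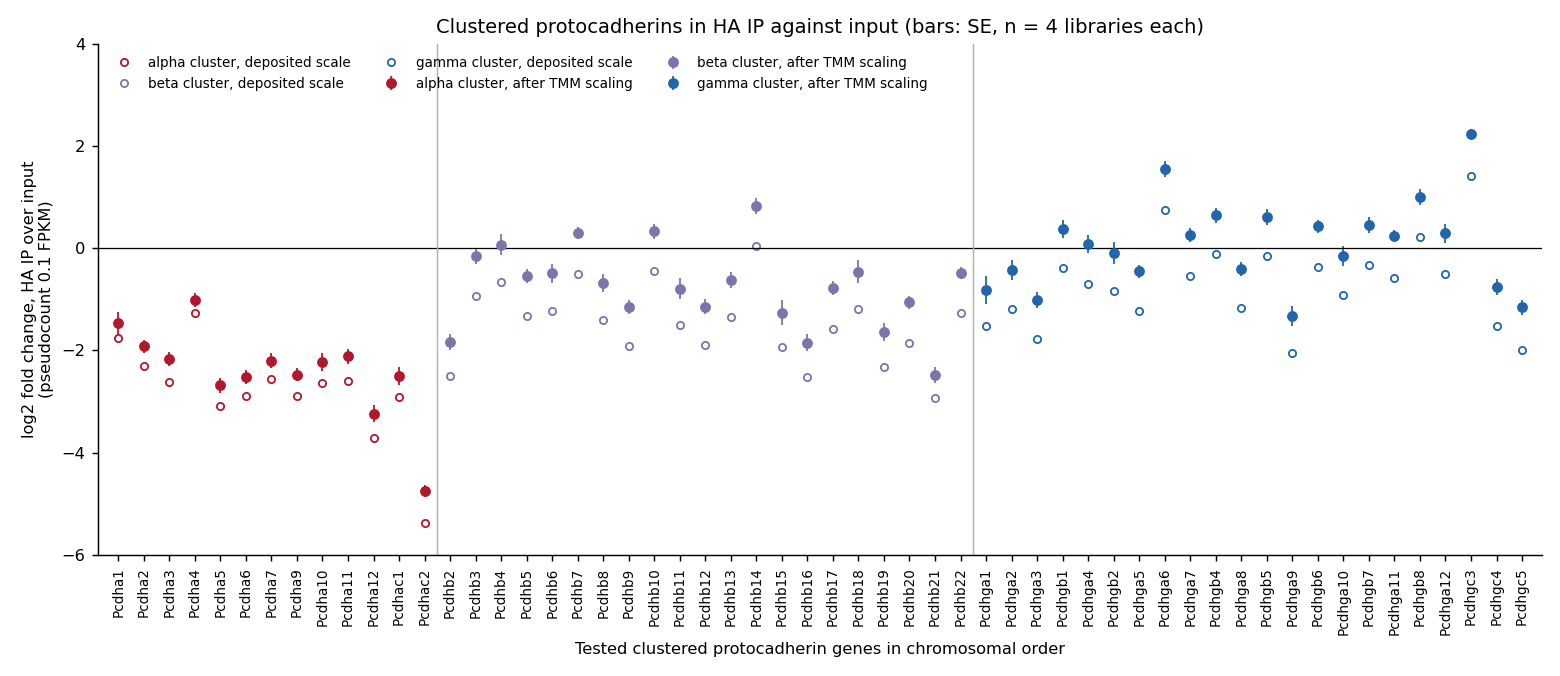
Log2 fold change of HA IP over input (vertical axis) for the 56 members tested, in chromosomal order. Filled points with SE bars (n = 4 libraries each) are after TMM scaling and open points are on the deposited scale, red for alpha, purple for beta and blue for gamma. All alpha genes lie below 0 on both scales, and Pcdhgc3 stands highest at 2.25 and 1.41.

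The alpha cluster (chromosome 18, 36930285 to 37188897, GRCm38) was low in HA IP throughout. Its 13 genes tested were all lower on both scales, with a median log2 fold change of -2.22 after TMM scaling and -2.64 as deposited. Among all genes 41.2% and 61.6% were lower on these scales. Apart from Pcdhac2, the alpha genes reached the level needed for testing in input libraries alone. The filter thus fixed their direction on the deposited scale, and the count of lower calls is no separate support. Alpha genes together had 1.32 ± 0.210 CPM (fragments scaled to the library total alone) in HA IP, against 85.3 ± 5.71 CPM in input (SD, n = 4 each). All 14 members had a value above 0 in every input library, but 8 to 11 of them in each HA IP library.

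Pcdhac2, the most abundant alpha isoform of the input and in mice needed for the even spread of serotonergic axons, had the most negative fitted fold change of the family. Its HA IP libraries had 0.117, 0.0874, 0.0863 and 0.0873 FPKM in animals 579, 580, 581 and 595, against 8.09, 7.42, 8.44 and 8.20 FPKM in their input libraries. These values rest on 29, 21, 21 and 16 fragments in HA IP, against 1560, 1423, 1690 and 2381 in input. Every HA IP value was far below every input value, and the spread within either group was small beside the gap. The log2 fold change was -4.75 (SE 0.12, limma adjusted p 5.23e-10) after TMM scaling and -5.39 as deposited. Pooled over animals, the HA IP level was 1.18% of the input level per library total (95% exact interval 0.945% to 1.46%, counting error only). Pcdhac1, the other alpha C-type isoform, had 0.0207 and 0.0213 FPKM in the HA IP libraries of animals 579 and 580 and was listed at 0 in those of 581 and 595, against 0.812, 0.832, 0.522 and 0.782 FPKM in input. It fell with a log2 fold change of -2.50 (SE 0.18).

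The 12 variable alpha isoforms had at most 11 fragments in any HA IP library, against 7 to 477 in input libraries. Summed over isoforms and animals they had 128 fragments in HA IP and 6234 in input, an HA IP level of 1.97% of input per library total (95% exact interval 1.64% to 2.34%). Single isoforms lay between 0.416% (Pcdha1) and 4.64% (Pcdha11) of input, with a median of 1.81%. Pcdha1, Pcdha6 (0.5%), Pcdha7 (0.644%) and Pcdha5 (0.967%) thus had lower pooled levels relative to input than Pcdhac2, but on 1 to 7 HA IP fragments each, and their 95% exact intervals all included its 1.18%. Pcdha12, the most abundant variable isoform of the input, had 0.0375, 0.0043, 0.0466 and 0.0169 FPKM in HA IP, against 1.51, 1.41, 1.58 and 1.69 FPKM in input. Its HA IP values were scattered at the level of a few fragments and none came near input. The log2 fold change of Pcdha12 was -3.24 (SE 0.17). At these levels the pseudocount of 0.1 FPKM limits the fitted change. With 0.01 FPKM the alpha log2 fold changes after TMM scaling ran from -5.47 (Pcdhac2) to -2.97 (Pcdha4), against -4.75 to -1.0 with 0.1 FPKM. Pcdha8 was too low to be tested. It had no fragment in any HA IP library and 73 in the input libraries together, which puts HA IP at least 25.4-fold lower on the deposited scale when 3 fragments over the group are taken as the floor.

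Neuronal transcripts were low in HA IP together with the alpha cluster. The 9 neuron markers, all of them lower, were at 2.39% (Gad2) to 10.6% (Rbfox3) of their input level, with a median of 4.45%. Their summed level was 77.6 to 98.3 FPKM in HA IP libraries and 2041 to 2285 FPKM in input libraries, and none was listed at 0 throughout HA IP. Low levels were not particular to neuron markers. Median HA IP levels were 6.69% of input for oligodendrocyte, 7.67% for oligodendrocyte precursor, 7.25% for microglia and 13.3% for endothelial markers. The part of neuronal RNA, or of RNA of these other cells, in the alpha values of either group was not tested.

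**Figure D2:**
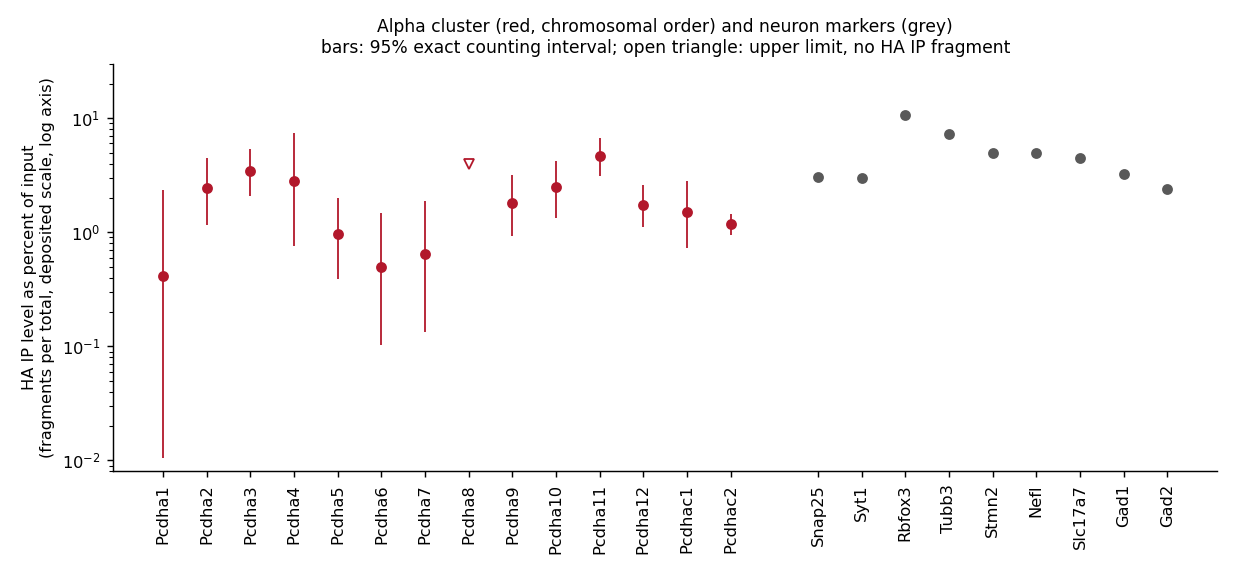
Level in HA IP as percent of input, per library total and pooled over 4 animals (log axis), for the 14 alpha genes (red) and 9 neuron markers (grey). Bars are 95% exact counting intervals, the open triangle is the upper limit for Pcdha8, and the alpha genes with a value lie between 0.416% and 4.64%, the neuron markers between 2.39% and 10.6%.

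The beta cluster (chromosome 18, 37264998 to 37521419) was lower in HA IP to very different degrees. After TMM scaling 15 of 21 genes tested were lower, 3 were higher and 3 did not pass, against 41.2% lower and 42.1% higher among all genes. As deposited 20 were lower, none was higher and Pcdhb14 did not pass, against 61.6% lower and 23.3% higher among all genes. The median log2 fold change of the beta genes was -0.68 after TMM scaling and -1.40 as deposited, against 0.01 and -0.75 for all genes. Pooled HA IP levels, which are on the deposited scale, ran from 2.41% to 99.9% of input, with a median of 32.4%. Without Pcdhb21 the lowest was Pcdhb2 at 11.5%.

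Pcdhb21 was the lowest of the beta genes relative to input. It was listed at 0 in the HA IP library of animal 579 and had 0.025, 0.0328 and 0.0218 FPKM in the other 3, against 0.798, 0.781, 0.749 and 0.901 FPKM in input. Its log2 fold change was -2.48 (SE 0.15, limma adjusted p 1.32e-07). Pcdhb21 too reached the level needed for testing in input libraries alone. The filter thus fixed its direction on the deposited scale, and the adjusted p is no separate support. Its HA IP level, at 2.41% of input (95% exact interval 1.09% to 4.62%), lay within the range of the alpha isoforms. Pcdhb2 and Pcdhb16 followed with -1.84 each, at 11.5% and 11.9% of input, and Pcdhb19 with -1.64. The most abundant beta gene of the input, Pcdhb17, had 1.07, 1.15, 1.26 and 1.59 FPKM in HA IP, against 3.63, 4.31, 3.65 and 4.33 FPKM in input. All 4 HA IP values of Pcdhb17 were below all input values, and its log2 fold change was -0.78 (SE 0.14) after TMM scaling and -1.59 as deposited. Pcdhb1, too low to be tested, had no fragment in HA IP and 23 in input, at least 8.01-fold lower by the same floor.

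Pcdhb14 kept the highest HA IP level relative to input in its cluster. It had 1.65, 1.69, 1.39 and 2.12 FPKM in HA IP, against 1.68, 1.58, 1.4 and 1.96 FPKM in input. The groups overlapped fully on the deposited scale, where the log2 fold change was 0.04, and it was 0.83 (SE 0.16, limma adjusted p 0.00061) after TMM scaling. Pcdhb7 passed as higher after TMM scaling with 0.30 (SE 0.12) but as lower on the deposited scale with -0.51, and Pcdhb10 likewise with 0.33 (SE 0.14) and -0.44. Within the cluster, and so independent of scaling between libraries, Pcdhb14 made up 12.6 ± 1.36% of the summed beta FPKM in HA IP and 4.53 ± 0.334% in input. Pcdhb7 made up 13.4 ± 1.43% in HA IP and 7.15 ± 0.139% in input. The TMM calls of Pcdhb7 and Pcdhb10 were lost in 8 and 9 of 12 fits that left out 1 animal or 1 library, with adjusted p up to 0.207 (Pcdhb7, without animal 580) and 0.256 (Pcdhb10, without animal 580). That of Pcdhb6, lower with -0.49 (SE 0.18), was lost in 7 of the 12, with adjusted p up to 0.0777 without the input library of animal 595. With the animal as a block Pcdhb10 no longer passed (adjusted p 0.0536), and Pcdhb18, at -0.46, passed as lower (adjusted p 0.0195), as it did without animal 595 (adjusted p 0.0134) and without its HA IP library alone (adjusted p 0.00461).

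The gamma cluster (chromosome 18, 37661775 to 37841873) was of overlapping total abundance in both groups on the deposited scale, with 349 ± 31.5 CPM in HA IP and 370.3 ± 13.3 CPM in input (SD, n = 4 each). Of its 22 genes 7 were higher, 7 lower and 8 did not pass after TMM scaling. The shares of all genes tested were 42.1% higher and 41.2% lower, so an even split is not particular to gamma. As deposited 2 gamma genes were higher, 15 lower and 5 did not pass, against 23.3% and 61.6% of all genes. Subfamilies A and B and the C-type isoforms differed in this respect.

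Of the 12 A isoforms, Pcdhga6 was the one called higher. It had 3.39, 4.39, 3.27 and 3.19 FPKM in HA IP, against 1.67, 2.56, 1.99 and 2.17 FPKM in input. All HA IP values exceeded all input values, and in each animal the HA IP library was the higher one. The log2 fold change was 1.55 (SE 0.16, limma adjusted p 8.35e-06) after TMM scaling and 0.74 (adjusted p 0.00115) as deposited. After TMM scaling 5 A isoforms were lower (Pcdhga1, Pcdhga3, Pcdhga5, Pcdhga8 and Pcdhga9) and 6 did not pass. As deposited, 11 of 12 were lower. Among all genes 42.1% were higher and 41.2% lower after TMM scaling, and 61.6% were lower as deposited. The lower calls after TMM scaling thus do not set the A isoforms apart. Pcdhga9, the lowest, had 0.502, 0.301, 0.25 and 0.301 FPKM in HA IP, against 1.87, 1.65, 1.5 and 1.73 FPKM in input, and its log2 fold change was -1.33 (SE 0.19). The most abundant A isoforms of the input, Pcdhga11 and Pcdhga12, did not pass after TMM scaling, with 0.24 and 0.30, and were lower as deposited, with -0.57 and -0.51. After TMM scaling both passed as higher without the HA IP library of animal 581 (Pcdhga12 with 0.47, adjusted p 0.0176, and Pcdhga11 with 0.31, adjusted p 0.0406), and Pcdhga11 also without the input library of animal 595 (adjusted p 0.0386). Pcdhga2 (-0.43) passed as lower without animal 579 (adjusted p 0.0408) and without its input library alone (adjusted p 0.0372). The call of Pcdhga1 (-0.82, SE 0.28) was lost in 4 of the 12 fits leaving out an animal or a library, with adjusted p up to 0.0715 without animal 595. That of Pcdhga8 (-0.40, SE 0.14) was lost in 5, with adjusted p up to 0.0625 without the HA IP library of animal 580.

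The 7 B isoforms had pooled HA IP levels between 53.0% (Pcdhgb2) and 118% (Pcdhgb8) of input. After TMM scaling 5 were called higher and none lower. On the deposited scale none was higher and Pcdhgb2 and Pcdhgb6 were lower. The shares of all genes were 42.1% higher and 41.2% lower after TMM scaling, and 23.3% and 61.6% as deposited. Pcdhgb8, annotated by RefSeq as a transcribed pseudogene, had 2.0, 1.75, 1.38 and 1.54 FPKM in HA IP, against 1.22, 1.56, 1.46 and 1.42 FPKM in input. Its groups overlapped, with the library of animal 581 as the lowest in HA IP, and the log2 fold change was 1.0 (SE 0.15) after TMM scaling and 0.21, not passed, as deposited. The other B isoforms called higher after TMM scaling changed sign on the deposited scale. They were Pcdhgb4 with 0.64 and -0.11, Pcdhgb5 with 0.61 and -0.16, Pcdhgb6 with 0.43 and -0.37 and Pcdhgb7 with 0.45 and -0.33. The call of Pcdhgb6 was lost without animal 579 (adjusted p 0.0783). That of Pcdhgb7 was lost in 6 of the 12 fits, with adjusted p up to 0.115 without animal 579, and with median-of-ratios scaling (adjusted p 0.053). With the animal as a block, Pcdhgb1 (0.37) passed as higher (adjusted p 0.0242), as it did without the HA IP library of animal 580 (adjusted p 0.0438) and without the input library of animal 595 (adjusted p 0.0499).

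The 3 gamma C-type isoforms changed in opposite directions, on both scales. Pcdhgc3, which in mouse cortical neurons promotes dendrite growth through its partner Axin1, had 50.2, 41.2, 41.1 and 44.1 FPKM in HA IP, against 16.7, 16.0, 17.9 and 15.7 FPKM in input. The lowest HA IP value was more than double the highest input value. The log2 fold change was 2.25 (SE 0.08, limma adjusted p 4.29e-09) after TMM scaling and 1.41 (SE 0.08) as deposited, and it was 2.46, 2.25, 2.01 and 2.26 in animals 579, 580, 581 and 595 after TMM scaling. The rise was smaller than that of any of the 12 astrocyte markers, which ranged from 2.96 (Aqp4) to 5.11 (Aldoc).

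Pcdhgc5 had 7.09, 5.53, 8.28 and 4.96 FPKM in HA IP, against 24.5, 24.7, 28.5 and 24.2 FPKM in input. All HA IP values were below all input values, and animal 581 was the highest in both groups. Its log2 fold change was -1.15 (SE 0.15, limma adjusted p 4.13e-05) after TMM scaling and -1.99 as deposited. Pcdhgc4, needed in mice for the survival of cortical interneurons, had 0.842, 0.827, 0.687 and 0.554 FPKM in HA IP, against 2.32, 2.32, 2.22 and 2.20 FPKM in input, and its log2 fold change was -0.75 (SE 0.15, limma adjusted p 0.00106). The HA IP levels of Pcdhgc5 and Pcdhgc4 were 25.9% and 32.8% of input, those of the alpha C-type isoforms Pcdhac1 and Pcdhac2 1.51% and 1.18%. Pcdhgc3 stood at 269% (95% exact interval 263% to 274%, counting error only). The spread between animals was wider, with log2 ratios of Pcdhgc3 from 1.20 to 1.59 as deposited.

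**Figure D3:**
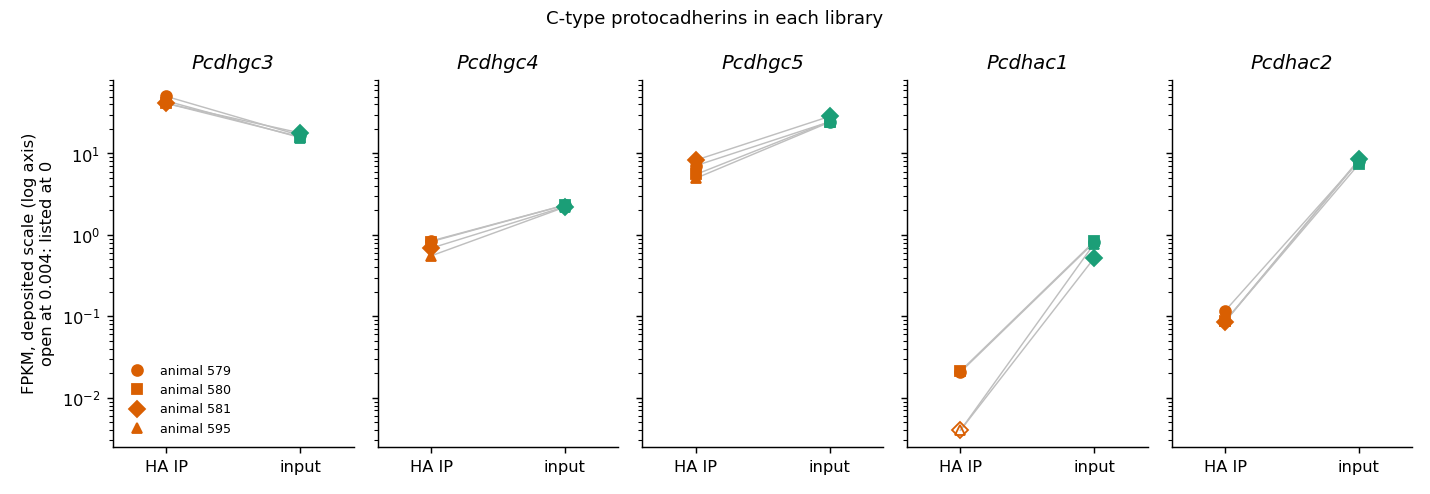
FPKM on the deposited scale (log axis) of the 5 C-type isoforms in HA IP and input libraries, with lines joining the libraries of an animal. Open symbols mark libraries in which Pcdhac1 was listed at 0. Pcdhgc3 is the one whose lines run down from HA IP (41.1 to 50.2) to input (15.7 to 17.9).

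Ratios within a library do not depend on scaling between libraries, and they showed the same contrast. Pcdhgc3 made up 58.8 ± 1.07% of the summed gamma FPKM in HA IP and 20.8 ± 0.766% in input (SD, n = 4 each). Pcdhgc5 made up 8.65 ± 2.18% in HA IP and 32.0 ± 1.42% in input. The ratio of Pcdhgc3 to Pcdhgc5 was 7.10 ± 1.62 in HA IP and 0.651 ± 0.0222 in input, so the order of the pair was reversed in every animal. The A isoforms together held 21.0 ± 1.21% of gamma FPKM in HA IP and 32.4 ± 1.54% in input. The B isoforms held 10.5 ± 0.894% in HA IP and 12 ± 0.648% in input. None of these 4 shares overlapped between the groups. They are parts of the same sum, so a larger share of Pcdhgc3 leaves less for the others. The lower A and B shares are thus not separate results.

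**Figure D4:**
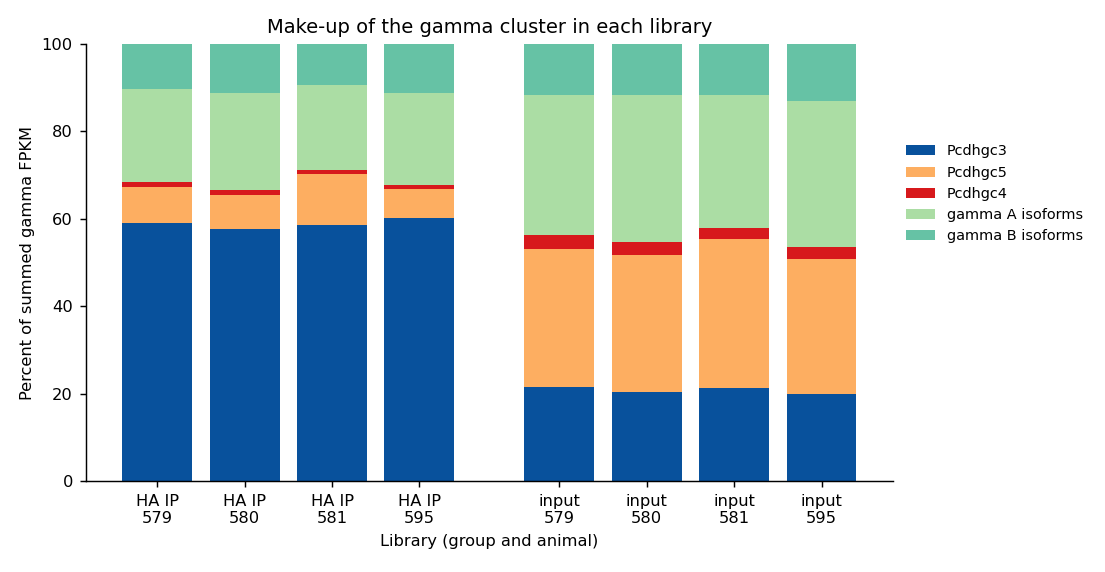
Share of the summed gamma FPKM (percent) held by Pcdhgc3, Pcdhgc5, Pcdhgc4 and the A and B isoforms in each library, HA IP left and input right. Pcdhgc3 holds 57.6% to 60.2% of each HA IP bar and 19.9% to 21.5% of each input bar.

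The family as a whole had 396 ± 30.8 CPM in HA IP and 580.4 ± 18.4 CPM in input. Gamma genes held 88.0 ± 1.30% of the family's fragments in HA IP and 63.8 ± 2.07% in input, beta genes 11.7 ± 1.33% and 21.5 ± 1.75%, and alpha genes 0.332 ± 0.0417% and 14.7 ± 0.635%. Pcdhgc3 alone held 52.2 ± 1.04% of the family's fragments in HA IP and 13.4 ± 0.855% in input. Of the 58 members, 51 to 54 had a value above 0 in an HA IP library and all 58 in an input library.

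**Figure D5:**
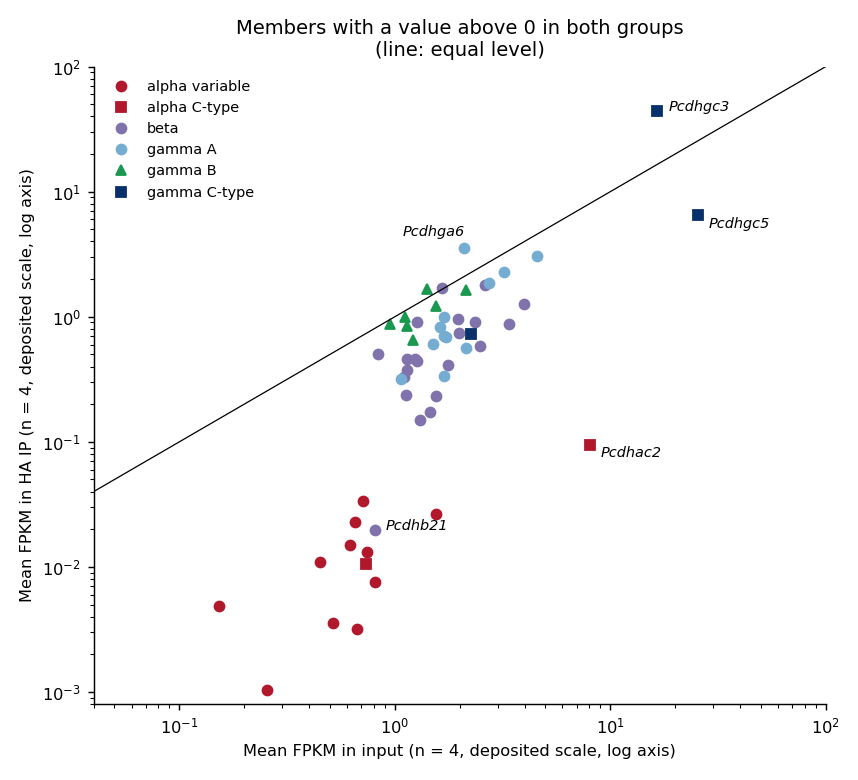
Mean FPKM in HA IP (vertical) against mean FPKM in input (horizontal), both on the deposited scale and log axes, for the 56 members with a value above 0 in both groups. The line marks equal levels. Alpha genes lie in a separate band at the bottom with Pcdhb21, and Pcdhgc3 and Pcdhga6 lie clearly above the line.

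Relative position within the clusters was described by Spearman's rho between chromosomal order and log2 fold change after TMM scaling, with genes that share libraries and, in alpha and gamma, exons. It was -0.68 over 13 alpha genes, -0.30 over 21 beta genes and 0.43 over the 19 gamma A and B isoforms. Across the same alpha genes rho between input level and log2 fold change was -0.90, with the pseudocount limiting the falls that low genes can show. The same limit bears on the alpha value of -0.68, which does not show that falls deepen along the cluster. Pooled HA IP levels, which need no pseudocount, were 0.416% of input for Pcdha1 at the start of the cluster. They were 4.64% for Pcdha11 and 1.18% for Pcdhac2 at its end. The corresponding value was 0.11 for beta genes and -0.13 for gamma A and B isoforms.

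How the shared exons were counted bears on the levels of alpha and gamma isoforms. The lengths behind the FPKM were 5202 to 5418 bases for alpha isoforms and, apart from Pcdhgb5 at 2259, 4476 to 5075 bases for gamma isoforms. Pcdha8 had 7 fragments in the input library of animal 579, where Pcdhac2 had 1560, so fragments of the shared exons cannot have been added in full to every alpha isoform. Whether such fragments were dropped or assigned otherwise is not given in the sources used here, and fragments from stretches of near-identical sequence between isoforms are likewise uncertain. The annotated spans of alpha isoforms overlap one another, as do those of gamma isoforms. The length of an isoform cancels from its pooled HA IP level relative to input. It does bear on the fitted fold changes of low genes, through the 0.1 FPKM added. FPKM levels of different clusters are only roughly comparable.

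Protocadherins outside the clusters were lower in HA IP for the most part. Of 11 tested, 8 were lower and 2 higher after TMM scaling, with a median of -0.86, and 9 were lower and none higher as deposited. Among all genes 41.2% were lower and 42.1% higher after TMM scaling, and 61.6% and 23.3% as deposited. Pcdh8, induced in neurons by activity, fell to 0.393 ± 0.0377 FPKM in HA IP, against 6.90 ± 1.85 FPKM in input (log2 fold change -3.04, SE 0.18). Pcdh7 fell with -1.25 and Pcdh11x with -1.08 (-1.44 with 0.01 FPKM added). Pcdh15, known from the hair cells of the inner ear, fell with -1.40, a value limited by the pseudocount at 0.0315 ± 0.0147 FPKM in HA IP, against 0.387 ± 0.205 FPKM in input. With 0.01 FPKM added it was -2.48, and the pooled HA IP level of Pcdh15 was 8.12% of input. Pcdh17 had 9.55, 9.23, 10.01 and 14.3 FPKM in HA IP, against 8.63, 7.13, 9.76 and 10.9 FPKM in input, and Pcdh10 had 9.17 to 11.7 FPKM in HA IP and 9.25 to 11.4 FPKM in input. Both overlapped between the groups as deposited. Without a block they passed as higher after TMM scaling, with 1.07 and 0.89, and not as deposited, with 0.24 and 0.06. With the animal as a block, 1 nonclustered protocadherin passed as higher as deposited.

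Among 17 regulators of protocadherin promoter choice, 10 were higher, 3 lower and 4 did not pass after TMM scaling, with a median of 0.28. The shares of all genes tested were 42.1% higher and 41.2% lower. As deposited 2 regulators were higher and 9 lower, against 23.3% and 61.6% of all genes. The cohesin ring subunit Smc3 rose to 29.2 ± 1.91 FPKM in HA IP, against 13.6 ± 0.60 FPKM in input (log2 fold change 1.93, SE 0.08, and 1.10 as deposited). Rest, a repressor of neuronal genes, rose to 1.77 ± 0.258 FPKM in HA IP, against 0.811 ± 0.243 FPKM in input (1.83, SE 0.19, and 1.07 as deposited). The other ring subunits Rad21 and Smc1a passed after TMM scaling, with 0.99 and 0.86, and not as deposited, with 0.15 and 0.02. The cohesin release and maintenance factor Pds5b fell to 2.43 ± 0.262 FPKM in HA IP, against 19.3 ± 1.02 FPKM in input (-2.12, SE 0.09). Its paralog Pds5a (-1.21) and the cohesin loader subunit Mau2 (-1.03) fell as well. Ctcf averaged 14.1 ± 0.375 FPKM in HA IP, against 21.6 ± 0.830 FPKM in input, and it passed as higher after TMM scaling (0.22) and as lower on the deposited scale (-0.62).

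Of 26 genes for binding, shedding and signalling partners, 12 were higher, 10 lower and 4 did not pass after TMM scaling, with a median of 0.15. As deposited 8 were higher and 15 lower. Among all genes tested 42.1% were higher and 41.2% lower after TMM scaling, and 23.3% and 61.6% as deposited. The counts thus do not set the partners apart from genes in general. The paralogs Cyfip1 and Cyfip2, subunits of the WAVE complex that binds the cytoplasmic tails of some protocadherins, moved in opposite directions. Cyfip1 rose to 9.24 ± 0.465 FPKM in HA IP, against 3.87 ± 0.0815 FPKM in input (2.06, SE 0.08). Cyfip2 fell to 2.21 ± 0.189 FPKM in HA IP, against 62.6 ± 1.73 FPKM in input (-3.94, SE 0.07). Wasf1, another WAVE subunit, fell with -2.46 (SE 0.10). Ptk2b, a kinase that clustered protocadherins bind and inhibit, fell to 1.76 ± 0.283 FPKM in HA IP, against 40.5 ± 1.61 FPKM in input (-3.64, SE 0.11), and the receptor kinase Ret fell with -1.69 (SE 0.31). The value of Ret is limited by the pseudocount, being -3.47 with 0.01 FPKM added, and its pooled HA IP level was 3.86% of input. Ryk, a Wnt receptor, rose with 2.36 (SE 0.08), and so did the gamma-secretase subunits Psenen (1.80) and Aph1a (1.60), part of the protease that cleaves protocadherins after shedding. The rises of Cyfip1, Ryk, Psenen and Aph1a also held as deposited, with 1.23, 1.54, 0.96 and 0.78.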

How the data were processed

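Per the labels' protocols, libraries for stranded paired-end reads started from 100 ng of HA IP or input RNA, enriched for mRNA. Per the submitters' processing notes, bcl2fastq 2.17, STAR and HTSeq were used with build mm10. The sources used here do not give the STAR and HTSeq versions, the annotation, the strand setting or the handling of multiply mapped reads. The authors deposited, per library, a value for 24060 symbols without naming its unit. These deposited values were read as FPKM, because a single length per gene and a single total per library turn all 142235 nonzero values into whole fragments within 0.001. The fragments given are the smallest whole numbers that fit, and for Pcdhgb5, whose length is well below that of its neighbours, the true number may be larger.

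The test was limma 3.58.1 in R 4.3.3 with an intensity trend on log2(FPKM + 0.1) after division by TMM factors, two-sided, with Benjamini-Hochberg adjustment over 15605 genes and a threshold of 0.05. Genes needed at least 0.246 CPM (fragments scaled to the library total) in 4 libraries and 15 fragments in all. Replicates are separate animals. Libraries of the same number come from 1 animal and deviated together (correlation of deviations from the group means 0.22 to 0.40, at most 0.11 between animals), and a fit with the animal as a block was an alternative. Further alternatives were no scaling, median-of-ratios scaling, other pseudocounts and filters, no trend, and leaving out each animal or library. The recovery of fragments and the test were checked on simulated data. Gene coordinates, lengths of spans and gene types come from RefSeq on GRCm38, the mm10 build. Intervals are exact and cover counting error only.

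Members, gene lists and named genes were chosen with earlier results of these data known. All 58 members are named by the symbol rule, and for each of the other lists up to 4 rises and 4 falls, the largest among those called, are given with values, with Ctcf named in addition after its values were seen. Sequences of the members are not printed.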

Additional observations from a re-analysis of the deposited data

Results flagged for a closer look

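In groups of 4 libraries, the highest or lowest value was set against the nearest of the other 3. Of 160 such groups, 15 had 1 library standing apart from the others by Dixon's criterion, where chance gives about 1 in 20.

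In HA IP, Pcdhac2 was highest in animal 579 with 0.117 FPKM, Pcdhga6 was highest in animal 580 with 4.39 FPKM, Pcdh17 was highest in animal 595 with 14.3 FPKM, and Ryk was lowest in animal 579 with 9.44 FPKM. The HA IP value of Pcdha1 in animal 579, 0.00418 FPKM, is a single fragment, with none in the other 3 libraries.

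In input, animal 595 was highest for Pcdhb7 with 3.0 FPKM, for Pcdhb12 with 1.91 FPKM and for Pcdh10 with 11.4 FPKM. The input library of animal 581 was highest for Pcdhgc5 with 28.5 FPKM, for Pcdh15 with 0.692 FPKM and for Ret with 0.925 FPKM, and lowest for Pcdhac1 with 0.522 FPKM. That of animal 580 was highest for Pcdhga4 with 2.11 FPKM and lowest for Pcdhga8 with 1.42 FPKM, and that of animal 579 was lowest for Pcdhga5 with 1.45 FPKM.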

How the results depend on the processing

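The 13 alpha calls held in every alternative run that tested them, the filter of 1 CPM leaving 11 to test. Without further scaling, all genes called higher numbered 3643, members higher 2, beta higher 0, gamma higher 2 and lower 15, nonclustered protocadherins higher 0, and regulators higher 2 and lower 9. With the replicate block as well, these were 3791 (and 9794 lower), 2, 0, 2 and 17, 1, and 3 and 10. Median-of-ratios scaling and no filter each left 1 beta gene higher. With median-of-ratios scaling the limma calls of Pcdhb7 (adjusted p 0.119), Pcdhb10 (0.112) and Pcdhgb7 (0.053) were lost. Pcdhb18 (adjusted p 0.0416) and Pcdhga2 (0.0325) then passed as lower. Leaving out animals or libraries gave 6 to 12 members higher, 1 to 3 beta genes higher, 5 to 9 gamma genes higher and 5 to 7 lower. With the replicate block alone, 53 of 56 members kept their call.

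Without further scaling, with or without the replicate block, the sign turned for Pcdhb4 (-0.65), Pcdhb7 (-0.51), Pcdhb10 (-0.44), Pcdhgb1 (-0.39), Pcdhga4 (-0.70), Pcdhga7 (-0.54), Pcdhgb4 (-0.11), Pcdhgb5 (-0.16), Pcdhgb6 (-0.37), Pcdhgb7 (-0.33), Pcdhga11 (-0.57), Pcdhga12 (-0.51) and Rpl22 (-0.14). Median-of-ratios scaling turned Pcdhb4 (-0.0049) and Pcdhga4 (-0.00061). Leaving out animals or libraries moved 3 genes to either side of 0, namely Pcdhb4 (-0.031 to 0.25), Pcdhga4 (-0.0052 to 0.22) and Pcdhgb2 (-0.20 to 0.14). The cause of these changes was not tested. Depth limits the alpha cluster most, since single HA IP values there rest on 0 to 29 fragments.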
